A study of Mus musculus with 10 samples.

Results

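Ecel1, Sfmbt2, Pqlc3, Gm7120 and Ccl28 are 5 of the 24421 gene symbols measured by RNA-seq in the ventral hippocampus (vHpc) of ovariectomized (OVX) mice. They were taken by name from the genes the study lists as higher after estradiol (E2) add-back in OVX mice of both genotypes, WT and Het-Met. The study made that list with a Z-score limit and a fold limit on its own RNA-seq of these groups. The genes were thus selected on their E2 contrasts, and their E2 values are given here as a description, without a test. All 5 passed the filter on low values and were among the 15081 genes tested.

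The study asked how E2 and the BDNF Val66Met genotype act together on the vHpc. The WT mice were C57/BL6. All mice were female, ovariectomized at 70 to 80 days of age and left to recover for 2 weeks. They then drank 300 nM E2 in 0.1% ethanol, about 0.7 µg per day, or 0.1% ethanol alone (vehicle) for 6 weeks. WT mice carried no Met allele, and Het-Met mice were heterozygous for the Val66Met knock-in, which is present in every cell of the animal. Of the 10 libraries, WT mice gave 2 with vehicle (replicates 1 and 3) and 2 with E2 (replicates 1 and 2), and Het-Met mice gave 3 with each treatment. Each library held RNA pooled from 2 animals, so the spread between libraries is a spread between pools. Values are CPM, that is reads on a gene per 1000000 reads counted on genes, and each library held between 19820184 and 23267410 such reads. A single read was worth 0.0430 to 0.0505 CPM.

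The tissue label was checked against markers. All 8 markers of hippocampal excitatory neurons were measured, with a summed level of 2204 to 2592 CPM per library. Slc17a7, the vesicular glutamate transporter of cortical and hippocampal excitatory neurons, was the most abundant of them at a mean of 1554 CPM.

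E2 acts through nuclear estrogen receptors, which bind DNA at paired GGTCA half-sites or are tethered to it by other factors, and through receptors at the membrane. The 5 genes have no common pathway. Ecel1 encodes a membrane metalloprotease of the neprilysin and endothelin-converting enzyme family, found mainly in neurons and induced after nerve injury. Sfmbt2 encodes a Polycomb-group protein with MBT domains, which bind methylated histones, and the mouse gene is imprinted in the placenta. Pqlc3, also named Slc66a3, encodes a membrane protein of the PQ-loop family. Gm7120, also named Tmem267, encodes a predicted membrane protein. Ccl28 encodes a chemokine of epithelia and mucosa, whose receptors are Ccr3 and Ccr10.

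The 5 genes lie at 4 loci, in the coordinates of RefSeq on GRCm38.p6, the assembly also called mm10. Ecel1 lies at chr1:87142874-87157085 on the minus strand. Sfmbt2 lies at chr2:10370440-10595253 on the plus strand. Pqlc3 lies at chr12:16988648-17000386 on the minus strand. Gm7120 at chr13:119488086-119610459 and Ccl28 at chr13:119623819-119654359 are neighbours on the plus strand, 13359 bp apart.

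Start-site windows of RefSeq (GRCm38.p6), each from 250 bases before to 50 bases after an annotated start, are printed 5′ to 3′ for 3 of the genes. Sfmbt2 is shown because its libraries separated by treatment in both genotypes, and Gm7120 and Ccl28 because they are the adjacent pair. Capitals mark GGTCA, the estrogen receptor half-site, and GGGCGG, the core of the Sp1 motif, read on either strand. The windows are chr2:10370201-10370500, chr13:119487836-119488135 and chr13:119623569-119623868, all on the plus strand.
Sfmbt2: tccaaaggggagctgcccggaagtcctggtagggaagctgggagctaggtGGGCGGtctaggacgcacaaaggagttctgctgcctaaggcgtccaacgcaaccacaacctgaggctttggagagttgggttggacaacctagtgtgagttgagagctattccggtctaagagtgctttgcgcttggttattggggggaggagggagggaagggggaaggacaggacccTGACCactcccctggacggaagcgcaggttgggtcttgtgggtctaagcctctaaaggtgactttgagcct
Gm7120: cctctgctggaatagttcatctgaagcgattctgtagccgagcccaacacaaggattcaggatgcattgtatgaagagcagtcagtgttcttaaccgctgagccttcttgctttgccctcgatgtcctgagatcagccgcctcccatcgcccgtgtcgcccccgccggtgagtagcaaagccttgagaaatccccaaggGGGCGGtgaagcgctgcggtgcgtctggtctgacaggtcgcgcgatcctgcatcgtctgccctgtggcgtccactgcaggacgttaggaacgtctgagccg
Ccl28: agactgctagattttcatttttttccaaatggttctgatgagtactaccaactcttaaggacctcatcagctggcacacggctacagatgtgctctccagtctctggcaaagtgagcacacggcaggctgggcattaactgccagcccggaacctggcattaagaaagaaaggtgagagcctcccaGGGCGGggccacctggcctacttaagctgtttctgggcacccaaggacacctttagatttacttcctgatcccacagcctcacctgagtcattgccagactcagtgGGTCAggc
Sfmbt2 and Gm7120 each have 2 such windows, which gives 7 windows for the 5 genes. The full estrogen response element, GGTCA and its reverse complement 3 bases apart, was in 0 of the 7 windows, against 0.0700% of all 32851 windows. GGTCA alone, which the full element contains, was in 2 of the 7 windows, 1 each of Sfmbt2 and Ccl28, against 40.5% of all windows. GGGCGG was in 6 of the 7 windows, all but that of Ecel1, with 15 matches, against 35.7% of all windows. TGACGTCA (the CRE), TATAAA (a core promoter box) and CACGTG (an E-box) were in 0 of the 7 windows, against 1.79%, 13.6% and 7.15% of all. These are matches of letters on both strands and not binding sites, and letters outside the windows were not read.

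By group mean, all 5 genes were higher after E2 add-back in both genotypes, a pattern the choice of genes fixed and that 24.3% of all genes tested shared. In OVX WT mice the E2-treated libraries lay above the vehicle-treated ones for 5 of the 5 genes, a separation seen in 15.6% of all genes tested. In OVX Het-Met mice they did so for 1 of the 5, Sfmbt2, against 5.15% of all genes. Sfmbt2 was thus the one gene of the 5 with both separations, which 92 genes or 0.61% of all showed. The choice of genes favoured these separations too, so their counts are a description and no excess over the shares is read from them. The name of the list, higher with E2 in both genotypes, therefore held for the group means of all 5 genes and for the single libraries of Sfmbt2 alone. The fold changes below are from limma on log2(CPM + 0.5), a scale that understates the change of low genes, with a standard error (SE) from the spread within groups. In bulk tissue, fewer cells of a type and less RNA per cell cannot be told apart.

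**Figure D1:**
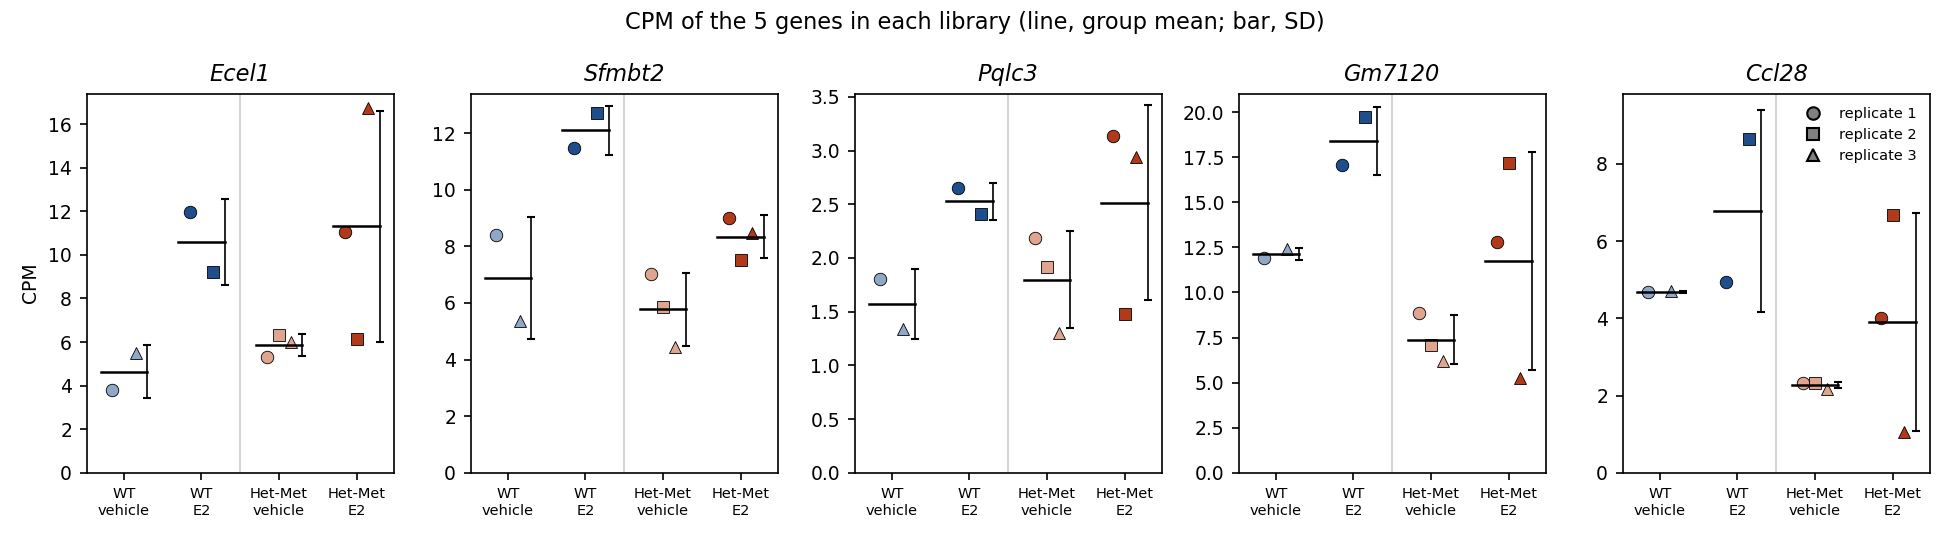
CPM (y axis, from 0) of each of the 5 genes in the 10 libraries, by genotype and treatment; points are libraries with a marker for the replicate number, lines are group means and bars the SD. The E2-treated WT libraries lie above the vehicle-treated ones in all 5 panels, whereas in Het-Met mice this holds in the Sfmbt2 panel only.

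Ecel1 stood at 3.79 and 5.50 CPM in vehicle-treated OVX WT mice and at 11.98 and 9.20 CPM after E2. In OVX Het-Met mice it stood at 5.31, 6.31 and 5.98 CPM with vehicle and at 11.1, 6.13 and 16.7 CPM with E2. Both E2-treated WT libraries were above both vehicle-treated ones, and in Het-Met mice replicate 2 of the E2 group stayed inside the vehicle range while the other 2 were well above it. The group means were 4.65 ± 1.21 and 10.6 ± 1.97 CPM in WT (SD, n = 2 each) and 5.87 ± 0.507 and 11.3 ± 5.31 CPM in Het-Met mice (SD, n = 3 each). The E2 log2 fold change was 1.12 (SE 0.31) in WT mice, rank 50 of the 15081 genes from the most positive, and 0.79 (SE 0.25) in Het-Met mice, rank 11. Without E2-treated replicate 3 the Het-Met value was 0.46. The order of the means was WT vehicle, Het-Met vehicle, WT E2 and Het-Met E2, and the libraries of the first 2 groups overlapped, as did those of the last 2. Read counts were 82 to 353 per library, and the 95% Poisson interval of the outlying E2-treated Het-Met replicate 2, 5.13 to 7.27 CPM, did not reach the 9.66 CPM at which that of replicate 1 began. Intervals of this kind cover counting error only.

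Sfmbt2 was the one gene whose libraries separated by treatment in both genotypes. It stood at 8.42 and 5.35 CPM in vehicle-treated and at 11.5 and 12.7 CPM in E2-treated OVX WT mice. In OVX Het-Met mice it stood at 7.02, 5.85 and 4.45 CPM with vehicle and at 9.004, 7.51 and 8.49 CPM with E2. No E2-treated library reached down to a vehicle-treated library of its genotype, with a gap of 3.07 CPM in WT and 0.493 CPM in Het-Met mice. The Het-Met gap was within counting error. The Poisson intervals of the closest Het-Met libraries, vehicle replicate 1 at 5.94 to 8.25 CPM and E2 replicate 2 at 6.40 to 8.76 CPM, overlapped. The means were 6.89 ± 2.17 and 12.1 ± 0.874 CPM in WT (SD, n = 2 each) and 5.78 ± 1.29 and 8.34 ± 0.757 CPM in Het-Met mice (SD, n = 3 each). The E2 log2 fold change was 0.80 (SE 0.21, rank 94) in WT and 0.51 (SE 0.17, rank 84) in Het-Met mice, and the WT value was 0.50 without vehicle-treated replicate 3. The order of the means was Het-Met vehicle, WT vehicle, Het-Met E2 and WT E2. The libraries of the lower 2 groups overlapped, and those of WT vehicle overlapped Het-Met E2, but both E2-treated WT libraries were above every other library. A set of 8 amygdala and hypothalamus markers, which come from tissue next to the vHpc, summed to between 4.51 and 14.7 CPM per library. Over the 10 libraries the log2 level of Sfmbt2 had r = -0.21 with that sum, and r = -0.94 after removal of the group means. A single gene made up most of that sum in several libraries, such as Pomc at 11.3 of 14.7 CPM in vehicle-treated WT replicate 3 and at 9.22 of 13.5 CPM in E2-treated Het-Met replicate 2, and Avp at 4.96 of 8.81 CPM in vehicle-treated Het-Met replicate 3. The relation is a description over pools that share 4 group means, and its part in the separation was not tested.

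Pqlc3 was measured on few reads, 27 to 64 per library. It stood at 1.80 and 1.34 CPM in vehicle-treated and at 2.65 and 2.41 CPM in E2-treated OVX WT mice. In OVX Het-Met mice it stood at 2.18, 1.92 and 1.299 CPM with vehicle and at 3.13, 1.48 and 2.94 CPM with E2. The WT libraries separated, and in Het-Met mice replicate 2 of the E2 group was again inside the vehicle range. The means were 1.57 ± 0.330 and 2.53 ± 0.170 CPM in WT (SD, n = 2 each) and 1.80 ± 0.453 and 2.52 ± 0.906 CPM in Het-Met mice (SD, n = 3 each). The log2 fold changes were 0.56 (SE 0.28, rank 214) in WT and 0.36 (SE 0.23, rank 290) in Het-Met mice. The Het-Met value was 0.19 without vehicle-treated replicate 3 and 0.64 without E2-treated replicate 2. The order of the means was WT vehicle, Het-Met vehicle, Het-Met E2 and WT E2, with overlap between the lower 2 groups and between the upper 2. The Poisson intervals of the WT libraries closest to each other, vehicle replicate 1 at 1.28 to 2.47 CPM and E2 replicate 2 at 1.82 to 3.13 CPM, overlapped.

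Gm7120 stood at 11.9 and 12.4 CPM in vehicle-treated and at 17.05 and 19.7 CPM in E2-treated OVX WT mice. In OVX Het-Met mice it stood at 8.87, 7.06 and 6.21 CPM with vehicle and at 12.8, 17.2 and 5.26 CPM with E2. Of the E2-treated Het-Met libraries, 2 were above every vehicle-treated one and replicate 3 was below every one. The means were 12.1 ± 0.353 and 18.4 ± 1.89 CPM in WT (SD, n = 2 each) and 7.38 ± 1.36 and 11.7 ± 6.03 CPM in Het-Met mice (SD, n = 3 each). The log2 fold changes were 0.58 (SE 0.34, rank 197) in WT and 0.50 (SE 0.28, rank 86) in Het-Met mice. The Het-Met value was 0.16 without E2-treated replicate 2 and 0.97 without E2-treated replicate 3. The order of the means was Het-Met vehicle, Het-Met E2, WT vehicle and WT E2, and the Het-Met E2 libraries overlapped each of the other 3 groups. The RefSeq gene 3110070M22Rik, on the opposite strand, shares 299 bp with the start of Gm7120, and the strand setting of the read counting is not given in the sources used here, so reads there cannot be told apart. It held 0.370 to 1.39 CPM per library.

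Ccl28 stood at 4.67 and 4.71 CPM in vehicle-treated and at 4.94 and 8.64 CPM in E2-treated OVX WT mice. In OVX Het-Met mice it stood at 2.32, 2.32 and 2.18 CPM with vehicle and at 4.01, 6.68 and 1.04 CPM with E2. The WT groups separated by 0.228 CPM, and the Poisson interval of E2 replicate 1, 4.06 to 5.95 CPM, held both vehicle-treated values. In Het-Met mice 2 of the 3 E2-treated libraries were above the vehicle-treated ones, and replicate 3, with 22 reads, was below them. The means were 4.69 ± 0.025 and 6.79 ± 2.62 CPM in WT (SD, n = 2 each) and 2.28 ± 0.083 and 3.91 ± 2.82 CPM in Het-Met mice (SD, n = 3 each). The log2 fold changes were 0.44 (SE 0.47, rank 334) in WT and 0.41 (SE 0.38, rank 180) in Het-Met mice. The WT value was 0.07 without E2-treated replicate 2 and 0.82 without E2-treated replicate 1. The Het-Met value was -0.07 without E2-treated replicate 2 and 1.04 without E2-treated replicate 3, so that its direction rested on replicate 2. The order of the means was the same as for Gm7120, with the E2-treated Het-Met libraries again reaching into each of the other 3 groups.

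Across the 5 genes the median E2 log2 fold change was 0.58 in WT and 0.50 in Het-Met mice, against -0.00 and 0.00 over all genes tested. A fold of 1.3, one of the limits that made the list, was exceeded in both genotypes by 4 of the 5 and by 23 genes or 0.153% of all. The selection fixed that count, and nothing is read from it. Pqlc3, at 0.36, was just outside and Ccl28, at 0.41, just inside the log2 limit of 0.38 in Het-Met mice. On the scale of CPM without a pseudocount the Pqlc3 means had a ratio of 1.40, above a fold of 1.3. Of all genes tested, 8 had an unadjusted limma p under 0.05 upwards in both genotypes. Only 2 of the 5 genes, Ecel1 and Sfmbt2, were among them, and nothing is read from that count because the genes were selected on these contrasts. The other 6 were Lrrc48, Mfap1a, Mgl2, Nyap2, Pla2g4e and Zfp459. Of these 6 only Mgl2, a lectin of macrophages, and Zfp459, a zinc finger protein, also passed the fold limit in both. Zfp459 went from 0.995 to 3.75 CPM in WT and from 1.39 to 2.16 CPM in Het-Met mice by group mean. After adjustment, limma called 2 genes (0.0133%) for E2 in WT mice and 0 genes (0.0% of those tested) in Het-Met mice, where 822 genes or 5.45% had an unadjusted p under 0.05.

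**Figure D2:**
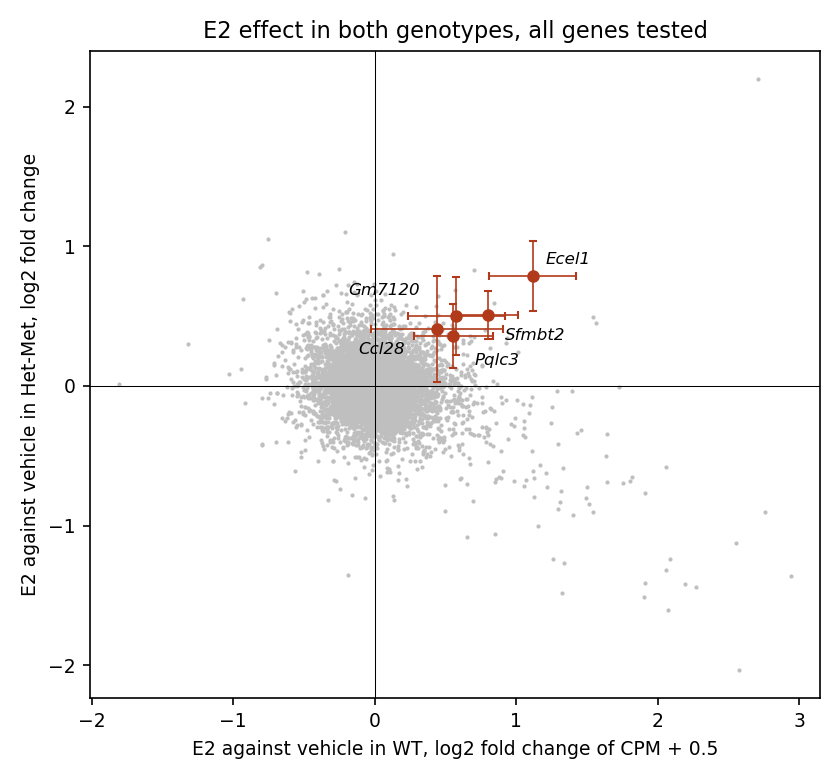
E2 log2 fold change of CPM + 0.5 in WT (x axis) against Het-Met mice (y axis) for all 15081 genes tested (grey), with the 5 genes in red and bars of 1 SE. All 5 lie in the upper right, where their selection put them, with Ecel1 farthest out at 1.12 and 0.79 and a tail of other genes running from the centre to the lower right.

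The difference of the E2 effect between genotypes comes from the contrasts that chose the genes for being higher in both, and is given without a test. The Het-Met minus WT difference of the log2 fold changes was -0.33 for Ecel1 (95% confidence interval -1.18 to 0.52) and -0.29 for Sfmbt2 (-0.87 to 0.29). It was -0.19 for Pqlc3 (-0.97 to 0.58), -0.07 for Gm7120 (-1.02 to 0.87) and -0.03 for Ccl28 (-1.32 to 1.25). The intervals were wide, and these libraries do not show the E2 effects to be alike.

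The spread in the E2-treated Het-Met group had an order that differed between genes. Replicate 2 was the lowest of its group for Ecel1, Sfmbt2 and Pqlc3 and the highest for Gm7120 and Ccl28. Replicate 3 was the highest for Ecel1 and the lowest for Gm7120 and Ccl28. Without replicate 2, the E2-treated libraries lay above the vehicle-treated ones for 3 of the 5 genes (Ecel1, Sfmbt2 and Pqlc3), against 10.6% of all genes. Without replicate 3, they did so also for 3 of the 5 (Sfmbt2, Gm7120 and Ccl28), against 8.51% of all. Without vehicle-treated replicate 2 the count was 2 of 5 (Ecel1 and Sfmbt2), against 1513 of the 15081 genes tested. Leaving out a library can only keep or add separations, and the genes were selected on E2, so nothing is read from these counts.

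Libraries that were high for one gene of the adjacent pair were high for the other. Over the 10 libraries, Gm7120 and Ccl28 had r = 0.96 on log2(CPM + 0.5), and r = 0.95 after the group means were removed. Among all genes tested Ccl28 was the most like Gm7120, and Gm7120 the most like Ccl28. Ecel1 ran the other way within groups, with r = -0.86 to Gm7120 and -0.89 to Ccl28, although over all 10 libraries these were -0.06 and -0.24. Sfmbt2 and Pqlc3 had r = 0.73 overall and 0.72 within groups, and Ecel1 and Pqlc3 had 0.77 and 0.55. For Ecel1, Gm7120 and Ccl28 the spread was largest in the 3 E2-treated Het-Met libraries (SD 5.31, 6.03 and 2.82 CPM). The r within groups between these genes therefore rested largely on those libraries. All these values describe 10 pools that share 4 treatment groups and come without a test.

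**Figure D3:**
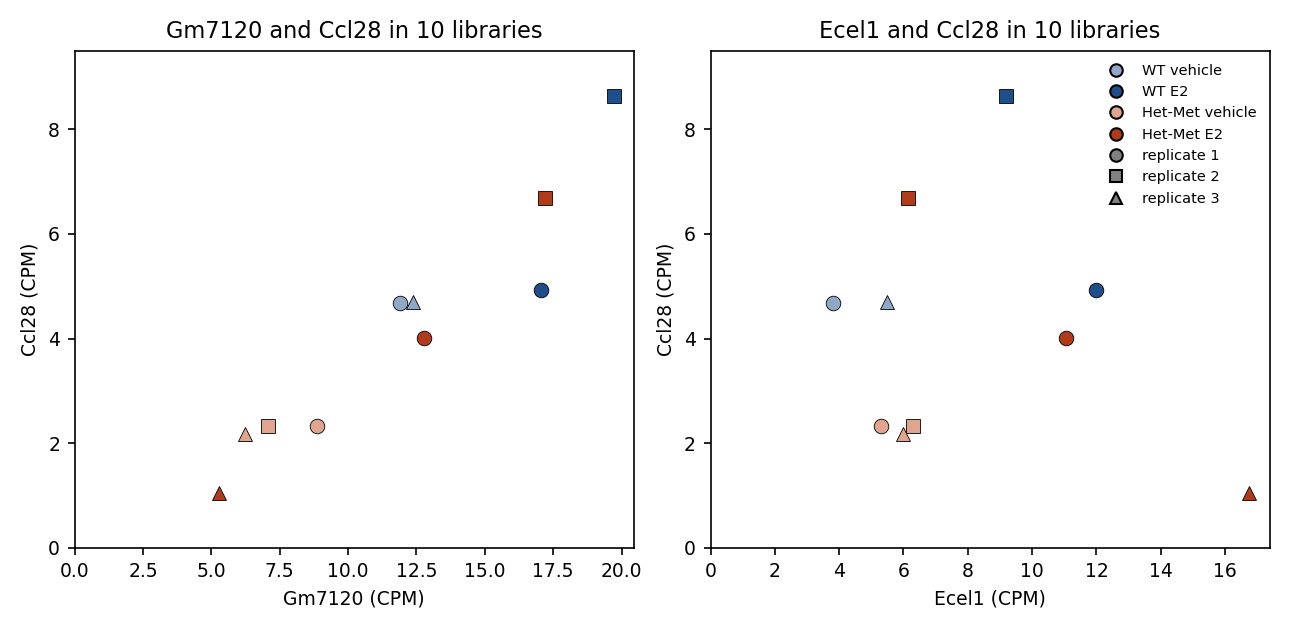
CPM of Ccl28 (y axis) against Gm7120 (left) and Ecel1 (right) in the 10 libraries, coloured by group with a marker for the replicate number. Ccl28 and Gm7120 run together from E2-treated Het-Met replicate 3 (1.04 and 5.26 CPM) to E2-treated WT replicate 2 (8.64 and 19.7 CPM), whereas the library highest for Ecel1, at 16.7 CPM, is the lowest for Ccl28.

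By the same measure, the 3 genes most like Ecel1 were Gpx3 (r = 0.93), a secreted glutathione peroxidase, 4932411E22Rik (0.93) and Gm5088 (0.93). For Sfmbt2 they were Aplp2 (0.92), a relative of the amyloid precursor protein, the mannosidase gene Man2b2 (0.88) and Dlec1 (0.87). Within groups the r of Sfmbt2 was 0.74 with Aplp2, 0.71 with Man2b2 and 0.39 with Dlec1. For Pqlc3 the 3 genes were Pigs (0.91), a subunit of the GPI transamidase, Fbxo24 (0.91) and the vitamin C transporter gene Slc23a1 (0.90). After Ccl28, Gm7120 was most like Stam2 (0.94), an endosomal sorting gene, and the cadherin gene Cdh12 (0.91). After Gm7120, Ccl28 was most like Zfp451 (0.93) and Cdh12 (0.92).

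Earlier results of these data were known when the 5 were taken from the study's list, so the choice may not be blind to genotype. The genotype contrast averaged over both treatments did not make that list and is independent of the E2 contrasts, so it was tested. By this contrast Ccl28 had the most negative log2 fold change of all 15081 genes tested, -0.92 (SE 0.30, 95% confidence interval -1.56 to -0.28) in Het-Met against WT mice. Gm7120 followed at -0.73 (SE 0.22, -1.20 to -0.26), 15068 of 15081 from the most positive, and Sfmbt2 at -0.37 (SE 0.14, -0.66 to -0.08). Ccl28 was at -0.61 without E2-treated Het-Met replicate 3, and Sfmbt2 at -0.22 without vehicle-treated WT replicate 1. These 3 had unadjusted p-values of 0.00805, 0.00488 and 0.0157, and limma's Benjamini-Hochberg adjusted p-values of 0.167, 0.147 and 0.197, so that none passed the adjusted threshold. An unadjusted p under 0.05 with a lower level in Het-Met mice was seen in 3 of the 5 genes and in 7.27% of all genes tested, and one with a higher level in 0 of the 5 and in 9.33% of all. Of the 3, Gm7120 and Ccl28 are adjacent and had r = 0.96 over the 10 libraries, so they are not independent counts. Ecel1, at 0.16 (SE 0.20, -0.26 to 0.58, adjusted p = 0.720), and Pqlc3, at 0.04 (SE 0.18, -0.35 to 0.43, adjusted p = 0.932), did not pass the limma test either. With a library left out, Ecel1 ran from -0.0027 to 0.34 and Pqlc3 from -0.039 to 0.18, so neither kept its direction throughout. The calls over all genes, at an adjusted p under 0.05 and a fold above 1.3, were 4 (0.0265%), namely Pla2g4e, Myoc, Gabra2 and Ntf3, and 0 of the 5 were among them. That count depended on the processing, at 2 without a filter, 86 without vehicle-treated Het-Met replicate 2 and 88 with DESeq2.

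Within treatments the same libraries gave the following. In vehicle-treated mice the 3 Het-Met libraries were below both WT libraries for Gm7120 and for Ccl28, as for 9.89% of all genes tested. The Het-Met mean was 0.608 of the WT mean for Gm7120 and 0.485 of it for Ccl28. In E2-treated mice the 3 Het-Met libraries were below both WT libraries for Sfmbt2, as for 14.7% of all genes, with a mean 0.689 of that in WT. For Gm7120 and Ccl28, 2 of the 3 E2-treated Het-Met libraries were below both WT libraries, with means 0.639 and 0.577 of those in WT. The log2 genotype difference under E2 ran from -1.11 (without Het-Met replicate 2) to -0.30 (without Het-Met replicate 3) for Gm7120 and from -1.42 to -0.31 without the same libraries for Ccl28. With 2 against 3 libraries an exact permutation test cannot reach an unadjusted p of 0.05, and none was run.

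The genes around the loci of the 5 genes were examined for comparison. Within 500 kb, 120 other symbols were in the table and 32 of them were tested, and limma called 0 of the 32 in any contrast. At an unadjusted p under 0.05, 2 were higher and 0 lower with E2 in WT mice, 1 higher and 3 lower with E2 in Het-Met mice, and 5 higher and 2 lower in Het-Met against WT mice over both treatments. The shares over all genes tested were 4.04% (2.37% higher and 1.66% lower), 5.45% and 16.6%.

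Around the adjacent pair, 8 neighbours were tested. Averaged over both treatments, their log2 fold changes in Het-Met against WT mice ran from 0.02 to 0.35, with minima of -0.12 among vehicle-treated and -0.18 among E2-treated mice. The nearest tested gene to Ccl28 on its far side, Hmgcs1, which makes a precursor of cholesterol, had 0.02 (SE 0.07, limma adjusted p = 0.922). Nnt, a mitochondrial transhydrogenase gene that carries a deletion in the C57BL/6J substrain, stood at 35.3 to 49.0 CPM and had 0.10 (SE 0.07, limma adjusted p = 0.462). 3110070M22Rik had 0.09 (SE 0.18), and its E2 log2 fold change was 0.81 (SE 0.29, limma adjusted p = 0.933) in WT mice and 0.27 (SE 0.23) in Het-Met mice. The difference between the pair and its neighbours was not tested.

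**Figure D4:**
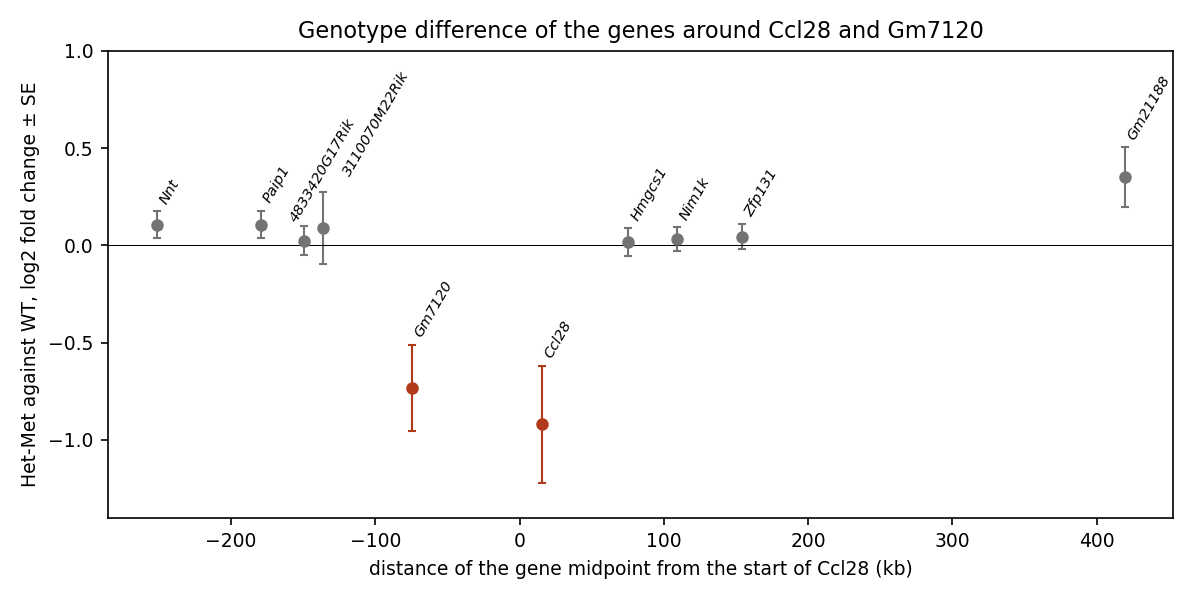
Log2 fold change of CPM + 0.5 in Het-Met against WT mice over both treatments (y axis, bars 1 SE) for the tested genes within 500 kb of Ccl28, by the distance of the gene midpoint from the start of Ccl28 in kb (x axis). Gm7120 at -0.73 and Ccl28 at -0.92 (red) lie below 0, and the 8 other genes (grey) lie between 0.02 and 0.35.

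Near Ecel1, the closest tested genes Dis3l2, an RNA exonuclease gene, and Eif4e2, a cap-binding protein gene, had E2 log2 fold changes of -0.06 and -0.07 in WT and 0.01 and -0.06 in Het-Met mice. Further away, Kcnj13, a potassium channel gene of the choroid plexus, had 2.08 (SE 0.45, limma adjusted p = 0.196) in WT and -1.24 (SE 0.37, limma adjusted p = 0.742) in Het-Met mice. Ngef had 0.24 (SE 0.06) in Het-Met mice. Sfmbt2 had a tested gene on one side only, Itih5, at 0.06 in WT and -0.04 in Het-Met mice. Beside Pqlc3, Rock2, a protein kinase gene only 374 bp away, had -0.00 and 0.03, and 2410004P03Rik on the other side had 0.24 and -0.35 (SE 0.14). Pdia6, in the same region, had -0.17 (SE 0.07) in Het-Met mice.

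Relatives of the 5 genes and the estrogen pathway were counted whole, and limma called 0 of them in any contrast. The neprilysin family relatives of Ecel1 (6 genes, 4 tested, Ece1 the most abundant) had a median E2 log2 fold change of -0.03 in WT and 0.07 in Het-Met mice, with 0 under an unadjusted p of 0.05. The MBT-domain and Pho-like relatives of Sfmbt2 (10 genes, 9 tested, Scmh1 the most abundant) had medians of 0.00 and -0.01, and 1 of the 9 had an unadjusted p under 0.05 for a higher level in Het-Met mice, as 9.33% of all genes did, namely Mbtd1 at 0.18 (limma adjusted p = 0.214). The PQ-loop relatives of Pqlc3 (5 genes, all 5 tested, the sugar transporter gene Slc50a1 the most abundant) had medians of 0.03 and -0.06. Of the 5, 1 had an unadjusted p under 0.05 for a lower level with E2 in Het-Met mice, as 2.63% of all genes did, namely Pqlc1 at -0.30 (limma adjusted p = 0.753).

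The chemokine list (10 genes, 6 tested, the neuronal Cx3cl1 the most abundant at a mean of 625 CPM) had medians of -0.15 in WT and 0.02 in Het-Met mice, with 0 under an unadjusted p of 0.05. The receptors of Ccl28 were scarce. Ccr10 held 0.332 to 0.664 CPM per library, and Ccr3 held 0 to 0.198 CPM with 0 reads in 6 libraries. Both were under the filter, and 3 reads were worth 0.129 to 0.151 CPM. Ccl19 was listed at 0 in all 10 libraries.

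Of the 7 estrogen receptors and responsive genes, all tested, medians of the E2 log2 fold change were 0.18 in WT and 0.08 in Het-Met mice. Esr1, the gene of estrogen receptor alpha, stood at 5.04 and 4.16 CPM in vehicle-treated and 6.01 and 6.02 CPM in E2-treated WT mice. In Het-Met mice it stood at 4.98, 5.95 and 4.59 CPM with vehicle and at 3.82, 3.23 and 7.49 CPM with E2, where replicate 2 was the lowest and replicate 3 the highest, as for Ecel1. Its log2 fold changes were 0.36 and -0.16, with limma p-values over 0.05 before adjustment in both. Pgr, the progesterone receptor gene and a classical E2 target, was the most abundant at a mean of 26.6 CPM and had -0.00 and 0.11. Greb1, another classical target, which lies within 500 kb of Pqlc3, had 0.29 and 0.20 at a mean of 0.646 CPM. Nrip1, a corepressor of nuclear receptors, was the 1 of the 7 with an unadjusted p under 0.05 for a lower level in Het-Met mice (7.27% of all genes), at -0.47 (limma unadjusted p = 0.00185, adjusted p = 0.126).

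Markers of other tissue moved with treatment in these libraries. The 8 choroid plexus markers summed to 147 and 1060 CPM in vehicle-treated and 2444 and 1863 CPM in E2-treated WT mice. They summed to 3228, 1441 and 1899 CPM in vehicle-treated and 1517, 426 and 255 CPM in E2-treated Het-Met mice. All 8 were higher with E2 in WT and lower in Het-Met mice at an unadjusted p under 0.05 (2.37% of all genes were higher in WT and 2.63% lower in Het-Met mice), limma called 0 after adjustment, and Ttr, which encodes the thyroid hormone carrier transthyretin, was the most abundant. The 5 genes had higher means with E2 in both genotypes, and over the 10 libraries their r with the log2 sum of these markers ran from -0.04 to 0.12. Within groups it ran from -0.28 for Sfmbt2 to 0.40 for Gm7120, and its part in their values was not tested.

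The 6 thalamus markers, of which Slc17a6 was the most abundant, summed to 67.1 and 79.3 CPM in vehicle-treated and 65.8 and 67.1 CPM in E2-treated WT mice. They summed to 67.8, 60.4 and 71.1 CPM in vehicle-treated and 74.8, 89.8 and 100.3 CPM in E2-treated Het-Met mice, where 2, Slc17a6 and Tcf7l2, were higher with E2 at an unadjusted p under 0.05 (2.82% of all genes), and Slc17a6 was lower with E2 in WT mice (1.66% of all). Over both treatments 3 of the 6 were higher and 1 lower in Het-Met than in WT mice at that level, against 9.33% and 7.27% of all genes. Under vehicle 1 was higher and 1 lower (5.85% and 4.83% of all), and under E2 5 were higher (6.29% of all), with 0 called by limma. Of the 8 choroid plexus markers, all 8 were higher in Het-Met mice under vehicle (5.85% of all genes) and all 8 lower under E2 (5.36% of all) at an unadjusted p under 0.05, with 0 called by limma in either, and 0 of 8 passed in the average of both. The highest sum of the thalamus markers was in E2-treated Het-Met replicate 3, the library highest for Ecel1 and lowest for Ccl28. The next highest was in replicate 2 of that group, which was the lowest of the group for Ecel1 and the highest for Ccl28. Over all libraries the r with the log2 sum was 0.40 for Ecel1 and -0.24 for Ccl28. The part of the thalamus markers was not tested. Of the 8 amygdala and hypothalamus markers 4 passed the filter, 5 were under 1 CPM, none was at 0 in all libraries, and Pomc was the most abundant at a mean of 3.47 CPM. The 4 tested had a median E2 log2 fold change of 0.35 in WT and 0.53 in Het-Met mice, and limma called 0 of them. Cartpt, a neuropeptide gene, had 0.59 (SE 0.42) in WT and 0.50 (SE 0.34) in Het-Met mice, whereas Pomc had -0.76 and 1.05 and Avp 0.85 and -0.69 (WT, then Het-Met), with signs that differed between the genotypes for both. Cartpt is also on the study's list of genes higher with E2 in both genotypes. Whether these markers have a part in the values of the 5 genes was not tested.

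The other marker sums varied less. They ran from 827 to 1035 CPM for 6 interneuron markers (Gad1 the most abundant), from 274 to 321 CPM for 5 microglia markers (Csf1r) and from 1601 to 1925 CPM for 5 astrocyte markers (Slc1a3). They ran from 3670 to 4678 CPM for 5 oligodendrocyte markers (Mbp) and from 140 to 183 CPM for 4 endothelium markers (Flt1). limma called 0 of all these markers for E2 in either genotype, and at an unadjusted p under 0.05 those passing were 1 astrocyte and 1 endothelium marker, both lower with E2 in WT mice (1.66% of all genes).

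Within groups, the r of the 5 genes with these and the other marker sums exceeded 0.6 in size for 7 of the 45 pairs of gene and list. Besides Sfmbt2 with the amygdala and hypothalamus markers, these were Pqlc3 with the same list (-0.70), Ecel1 with oligodendrocytes (-0.73), Gm7120 (0.63) and Ccl28 (0.61) with microglia, and Sfmbt2 with astrocytes (-0.64) and hippocampal excitatory neurons (-0.67). Over all 10 libraries the r with microglia was 0.02 for Gm7120 and 0.07 for Ccl28. Pqlc3 with the amygdala and hypothalamus markers had -0.34, and Sfmbt2 with hippocampal excitatory neurons kept -0.68. In turn, Pqlc3 with hippocampal excitatory neurons (-0.66) and Sfmbt2 with interneurons (0.63) exceeded 0.6 only before the group means were removed. All these r values describe 10 pools and come without a test, and the part of the markers in the values was not tested.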

How the data were processed

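RNA of the vHpc was sequenced as 75-bp single-end reads from a stranded kit. The authors aligned the reads to mm10, with TopHat2 among the tools their processing notes name, and deposited CPM per gene symbol for 10 libraries. How reads were assigned to strands and to near-identical genes is not given in the sources used here. Divided by the smallest value above 0 of its library, 100% of the values came out whole within 0.01, and these numbers were taken as the reads behind the CPM. The study's methods give 3 replicates per group, of which 2 were analysed here in each WT group.

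Genes whose mean reached 0.5 CPM, 15081 in number, were fitted as log2(CPM + 0.5) with the means of the 4 groups in limma 3.58.1 (R 4.3.3), moderated along an intensity trend (8.90 prior and 6 residual degrees of freedom). Tests were two-sided, and a gene was called at an adjusted p-value (Benjamini-Hochberg) below 0.05 with a fold above 1.3. p-values measure the spread between pools of 2 animals. The 5 genes, the related lists and the markers were chosen with earlier results of these data known. The genes named were the 5, their neighbours within 500 kb (the nearest tested on each side, Nnt, and those with a called genotype difference or an unadjusted p under 0.05 for E2), the 3 genes most like each, and the most abundant and passing members of each list. Alternatives were a pseudocount of 0.1 or 1, a filter at 2 CPM or none, median-of-ratios and quantile scaling, a replicate block, edgeR 4.0.16 and DESeq2 1.42.0 on the recovered reads, and each library left out. Counts of separated genes without each library, and under median-of-ratios scaling, were added after seeing the data. The fit was tested on simulated data. Positions were matched in RefSeq (GRCm38.p6) for 23203 symbols directly and 1096 by synonym, and 122 were not matched. Replicates of a group differed by more than sampling noise (chi-square per degree of freedom 3.40 to 14.1).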

Additional observations from a re-analysis of the deposited data

Results flagged for a closer look

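For 3 genes of the related and marker lists, every E2-treated library moved one way from the vehicle-treated ones in WT mice and the opposite way in Het-Met mice. The 3 are named because of this pattern, and the share of all genes tested that shows it was not counted. Their values below are thus a description. The limma p-values are for the same difference the genes were picked on, so nothing is read from them. The E2 log2 fold change of Aqp1, a water channel of the choroid plexus, was 1.91 in WT and -1.41 in Het-Met mice, and limma's test of the difference gave an adjusted p of 0.120. For the thalamic glutamate transporter gene Slc17a6 it was -0.37 and 0.65, with an adjusted p of 0.0522 for the difference by limma. For Sfmbt1, the relative of Sfmbt2, it was 0.15 and -0.069, with an adjusted p of 0.919 for the difference by limma.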

How the results depend on the processing

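No alternative among the 19 called any of the 5 genes between genotypes. The genotype difference of Ccl28 ran from -1.16 to -0.61 (without E2-treated Het-Met replicate 3), that of Gm7120 from -0.90 to -0.50 and that of Sfmbt2 from -0.52 to -0.22 (without vehicle-treated WT replicate 1). Their lowest limma, edgeR or DESeq2 adjusted p-values were 0.136, 0.132 and 0.096. The count of all genes called, 4, was 2 without a filter and 88 with DESeq2, and 1 (without E2-treated WT replicate 1) to 86 (without vehicle-treated Het-Met replicate 2) when a library was left out. edgeR on the recovered reads called 4 genes.

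Some values changed sign. With a library left out, the genotype difference over both treatments ran from -0.0027 (without E2-treated Het-Met replicate 3) to 0.34 for Ecel1 and from -0.039 to 0.18 for Pqlc3. Within vehicle it ran from -0.53 to 0.080 (without WT replicate 1) for Sfmbt2 and from -0.023 to 0.31 for Pqlc3. Within E2 it ran from -0.33 to 0.36 for Ecel1 and from -0.21 to 0.22 for Pqlc3, both highest without Het-Met replicate 2. For Ecel1 it was 0.00091 with a pseudocount of 1, 0.072 with edgeR and 0.068 with DESeq2, against -0.00. The E2 effect on Ccl28 in Het-Met mice ran from -0.072 (without E2-treated replicate 2) to 1.04. The cause was not tested.

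Replicate numbers did not pair the libraries, since deviations of same-numbered libraries had r between -0.17 and 0.08. With the replicate block the E2 effect in WT mice was -0.091 for Ccl28 and 0.20 for Gm7120, 3 genes were called between genotypes, and no call among the 5 changed. The number of the 5 genes separated by E2 in Het-Met mice ran from 1 to 3 with a library left out. In either genotype leaving out a library cannot undo a separation, so such a count can only stay or rise. Pqlc3 and Ccl28 were measured on few reads, at 27 to 64 and 22 to 201 per library. The spread of Ccl28 in E2-treated Het-Met mice was larger than counting error. Its Poisson interval was 0.65 to 1.58 CPM in replicate 3 and 5.64 to 7.87 CPM in replicate 2.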
